A study of Homo sapiens with 6 samples.

Results

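The ZNF genes of chromosome 19 are protein-coding genes whose symbol is ZNF followed by a number and at most 1 letter. 246 of the 58735 genes in the expression table, and of its 19951 protein-coding genes, had such a name and lay on chromosome 19. The naming rule used no expression value, although the genes were chosen with earlier results of these data known. RNA was sequenced from PC9-BrM3, a line derived from the human lung adenocarcinoma line PC9 and selected from brain metastases through repeated passage in mice. 3 libraries came from cells carrying a lentiviral short hairpin RNA against AKR1B10, an aldo-keto reductase (BrM3-shAKR1B10), and 3 from cells carrying the negative control hairpin (BrM3-shNC). All 6 were in routine culture, and the figure legends of the study give its shAKR1B10 cells as those with the first of its hairpin vectors. The labels do not say whether the libraries of a group were separate cultures, so p-values measure the spread between these libraries, which may be technical.

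ZNF genes encode proteins with repeated C2H2 zinc fingers, each of which holds a zinc ion and reads a few bases of DNA. Many of them also carry a KRAB box at the start of the protein. The KRAB box binds TRIM28, a scaffold that brings the histone methyltransferase SETDB1 and HP1 proteins to the bound site and silences it, and transposable elements are the best known targets. On chromosome 19 these genes lie in clusters that grew by tandem duplication, so neighbours resemble each other in sequence.

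Between 16964504 and 18709028 reads per library fell on genes. Levels are in FPKM, fragments scaled by gene length and library size. AKR1B10 stood at 107 to 110 FPKM after knockdown and at 772 to 799 FPKM in the controls, a log2 fold change of -2.85 ± 0.03 (SE). 7 of 10 epithelial and lung adenocarcinoma markers were at 1 FPKM or more, led by KRT19 at 935 FPKM, while the lung lineage genes NKX2-1, NAPSA and SFTPB were at 0.155, 0.483 and 0.00885 FPKM. Of 6 markers of fibroblasts, leukocytes, endothelium and brain cells, only COL1A1 passed 1 FPKM. Their summed level ran from 1.54 to 1.68 FPKM after knockdown and from 2.57 to 2.61 FPKM in the controls, COL1A2 was at 0, and the part of such cells in the results below was not tested. In bulk RNA, fewer cells of a type and less RNA per cell cannot be told apart. BrM3-shNC replicate 1 stood somewhat apart, with a chi-square per gene of 4.50 and 4.97 against the other BrM3-shNC libraries where every other pair within a group gave 2.35 to 2.57, and results that rest on it are given without it.

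Most of the 246 genes were low. 56 had no read in any library, 82 had reads but a mean below 1 FPKM, and 108 reached a mean of at least 1 FPKM over the 6 libraries and entered the test. Of those 108, 39 lay between 1 and 2 FPKM, 39 between 2 and 5, 19 between 5 and 10, and 11 at 10 or above. The median over all 246 was 0.674 FPKM, and the tested genes had 34 to 2696 reads in a library. The genes together held 0.276% to 0.278% of the reads in each library, with summed levels of 615 to 629 FPKM after knockdown and 612 to 628 FPKM in the controls. The ranges of the groups overlapped in both measures.

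Level went with protein architecture. A pattern for the KRAB box was found in the longest annotated protein of 208 genes and not in 38, and the C2H2 fingers found numbered 0 to 36 with a median of 12. The pattern misses degenerate boxes, so the 38 are genes without a match rather than genes shown to lack the domain. Genes with a match had a median level of 0.572 FPKM and those without one 4.44 FPKM, and none of the 11 genes at 10 FPKM or above had a match. The 5 most abundant were ZNF581 at 40.9 FPKM, ZNF787 at 34.5 FPKM, ZNF579 at 33.6 FPKM, ZNF524 at 29.4 FPKM and ZNF865 at 27.7 FPKM. All 5 lie in the same cluster near the end of the long arm, and their log2 fold changes between -0.04 and 0.14 did not pass the test.

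Genes without reads were unevenly spread along the chromosome. With consecutive genes grouped where they start less than 1 Mb apart, the 246 genes formed 16 clusters. Cluster 5, from 19.67 to 24.13 Mb on the short arm (GRCh38), held 37 ZNF genes, of which 29 had no read in any of the 6 libraries and none reached 1 FPKM. Its first genes were transcribed at a low level, ZNF101 with 53 to 89 reads per library, ZNF14 with 9 to 22 and ZNF506 with 18 to 32. From the next gene, ZNF253, to the last, ZNF254 (19.87 to 24.13 Mb), 34 consecutive ZNF genes followed with at most 7 reads for any gene in any library. Those 34 genes summed to between 1 and 9 reads per library and 24 reads over all 6. Of the 34, 29 had no read, against 27 of the 212 ZNF genes outside the run. The genes between those of the run were much the same. Of the 159 other genes of any kind within the run 154 had no read. Only RPSAP58, a processed pseudogene of a ribosomal protein gene, passed 9 reads. Most of these are not coding, since cluster 5 holds 2 other coding genes and 167 noncoding ones. Over the whole table, 31583 of 58735 genes had a read in some library. These genes of cluster 5 were singled out after their values were seen. A count of 0 allows up to 3 reads, which is 0.163 to 0.177 FPKM for a gene model of 1000 bases and covers counting error only. The lack of reads held in both groups, and no difference between them could be measured there. RNA alone cannot tell a gene that is present but not transcribed from one that is missing from the genome of these cells, and DNA was not analysed here.

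**Figure D1:**
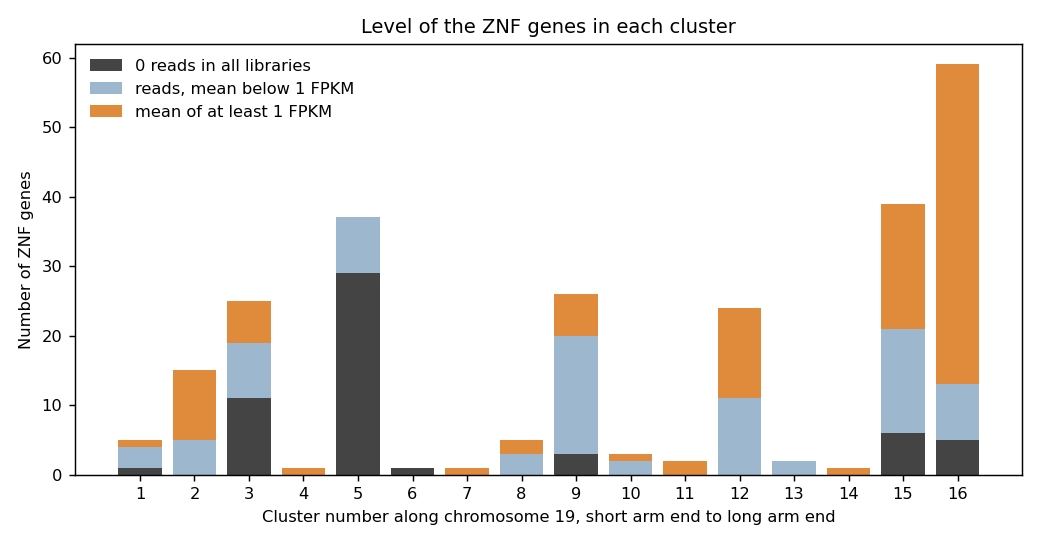
Number of ZNF genes in each of the 16 clusters of chromosome 19 (horizontal axis, in chromosome order), stacked by level over the 6 libraries: no read, reads but a mean below 1 FPKM, or a mean of at least 1 FPKM. Cluster 5 has 29 of 37 genes at 0 and none at 1 FPKM, whereas 46 of the 59 genes of cluster 16 are at 1 FPKM or more.

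Other clusters were transcribed to different degrees. Cluster 3 (11.48 to 12.64 Mb) had 11 of 25 genes at 0 and 6 tested, cluster 9 (36.18 to 37.82 Mb) had 3 of 26 at 0 and 6 tested, and cluster 12 (43.53 to 45.08 Mb) had none of 24 at 0 and 13 tested. Cluster 15 (51.57 to 53.58 Mb) had 6 of 39 at 0 and 18 tested, and cluster 16 (55.48 to 58.48 Mb) had 5 of 59 at 0 and 46 tested. Clusters 15 and 16 thus held 64 of the 108 genes tested.

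The first comparison asked whether silencing AKR1B10 went with a shift of the family. After knockdown, 9 of the 108 tested genes were lower and 3 higher by both thresholds used here, an adjusted p below 0.05 and a log2 fold change past 0.5 in size. The share called lower was 8.33% against 7.45% of all 13150 genes tested, and the share called higher was 2.78% against 5.83%. Disregarding the fold, 28 (25.9%) were lower and 13 (12%) higher at an adjusted p below 0.05, against 23.1% and 19.4% of all genes tested. By the adjusted p alone, 15 of 108 (13.9%) were lower without BrM3-shNC replicate 1 and 15 of 109 (13.8%) without BrM3-shAKR1B10 replicate 3, against 21.2% and 19.3% of all genes tested in the same fits. The counts were 17 of 111 (15.3%, against 19.3%) without BrM3-shAKR1B10 replicate 1, 18 of 108 (16.7%, against 19.5%) without BrM3-shNC replicate 3, and 16 of 190 (8.42%, against 8.37%) with no filter. Higher genes numbered 9 to 14 on leaving out each library, or 8.26% to 13.0%, against 14.6% to 17.5% of all genes tested. The library groups did not overlap for 54 of the 108 genes (50%), against 54.7% of all genes tested. The shares of lower genes were thus near the background in both readings with all libraries and below it by the adjusted p whichever library was left out, and those of higher genes were below it. When values were rescaled to TPM, 5 were lower and 3 higher, against 6.48% and 6.68% of all genes tested. With a pseudocount of 1, 1 was lower and 1 higher, and both counts then lay below the 5.38% and 3.78% of all genes tested.

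The sizes of the differences were small. The median log2 fold change was -0.06 over the 108 genes, with quartiles of -0.27 and 0.14 and a range of -0.74 to 0.81. It was -0.0317 without BrM3-shAKR1B10 replicate 1, -0.0265 in TPM and 0.0152 over the 30 genes at 5 FPKM or above. It was -0.01 over all genes tested, -0.03 over the other coding genes, -0.04 over the 665 other tested coding genes of chromosome 19, and 0.04 over the 179 tested ZNF coding genes of other chromosomes. No tested ZNF gene of chromosome 19, and none of the 179 of other chromosomes, had a log2 fold change past 1 in size, which 492 of all genes tested did (3.74%). Among the ZNF genes of other chromosomes 5 were lower (2.79%) and 6 higher (3.35%) past both thresholds, against 7.45% and 5.83% of all genes tested. At an adjusted p below 0.05 of any fold, 26 were lower (14.53%) and 40 higher (22.35%), against 23.1% and 19.4%.

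Set against other coding genes of similar level, the medians of the ZNF genes lay lower in each band up to 10 FPKM and higher in the top band. At 1 to 2 FPKM, 5 of 39 were lower and none higher, with a median of -0.09 against 0.01 for other coding genes, of which 10.2% were lower and 10.1% higher. 4 genes of this band, all below 0, reached a mean of 1 FPKM only through the controls, and no gene did so only through the knockdown libraries. With both group means at 1 FPKM or more, 4 of 35 were lower and none higher, with a median of -0.09 against -0.01 for other coding genes, of which 8.29% were lower and 5.69% higher. At 2 to 5 FPKM, 1 of 39 was lower and 3 higher, with a median of -0.04 against -0.02 and shares of 9.06% and 6.22% in the other coding genes. At 5 to 10 FPKM, 3 of 19 were lower and none higher, with a median of -0.10 against -0.02 and shares of 7.10% and 4.12%. None of the 11 genes at 10 FPKM or above passed, with a median of 0.05 against -0.04 and shares of 7.27% lower and 3.0% higher in the other coding genes. These are descriptions of lists, with no test of the list.

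The medians of the genes with and without a KRAB match lay on different sides of 0. Among the 81 tested genes with a match, 9 were lower (11.1%) and 2 higher (2.47%), 56 had a log2 fold change below 0 (69.1%), and the median was -0.10. Over all genes tested these shares were 7.45%, 5.83% and 51.6%. Among the 27 without, none was lower and 1 was higher, 7 were below 0, and the median was 0.07. At an adjusted p below 0.05 of any fold, 26 genes with a match were lower (32.1%) and 7 higher (8.64%), and 2 without a match were lower (7.41%) and 6 higher (22.2%), against 23.1% and 19.4% of all genes tested. Of the genes with a match, 14 of 80 were lower by that measure without BrM3-shNC replicate 1 (21.2% of all genes tested) and 15 of 81 without BrM3-shAKR1B10 replicate 3 (19.3%), and 17 to 19 of 80 or 81 without any other library (19.3% to 19.7%). 18 of 81 were lower with the replicate block (20.1%), and 16 of the same 81 with no filter (8.37%, over a table that then takes in genes with few or no reads). ZNF57, ZNF266, ZNF461 and ZNF773, which have a match and a log2 fold change below 0, reached 1 FPKM only through the controls (all but ZNF266 named after their values were seen). With both group means at 1 FPKM or more (an alternative chosen after seeing the data), 8 of 77 with a match were lower (10.4%) and 2 higher (2.60%), 52 were below 0 (67.5%) and the median was -0.10, while the 27 without a match all remained. All genes under that rule gave 7.25%, 5.07% and 52.1%. The contrast was seen in both ranges of level. Between 1 and 5 FPKM the medians were -0.09 over 67 genes with a match and 0.12 over 11 without. At 5 FPKM or above they were -0.17 over 14 and 0.05 over 16. The median levels with and without a match were 1.93 and 2.97 FPKM in the lower range and 6.12 and 17.4 FPKM in the upper. Every gene at 10 FPKM or above lacks a match, so level and match cannot be told apart in the upper range. Per library, the median deviation of the genes with a match from their own mean was -0.07, -0.06 and -0.08 after knockdown and 0.10, 0.07 and 0.03 in the controls. For those without a match it was 0.05, 0.01 and 0.07 against -0.12, -0.04 and 0.01. The libraries of the 2 groups did not overlap in either case. The same held over all 13150 genes tested, at -0.003, -0.005 and -0.007 after knockdown and 0.010, 0.012 and 0.012 in the controls. Such separation is therefore not particular to these genes. BrM3-shNC replicate 1 was the farthest from 0 among both the matched and the unmatched genes. Without that replicate the medians were -0.10 and 0.01, with 13 of the 27 unmatched genes below 0. In TPM they were -0.07 and 0.11.

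**Figure D2:**
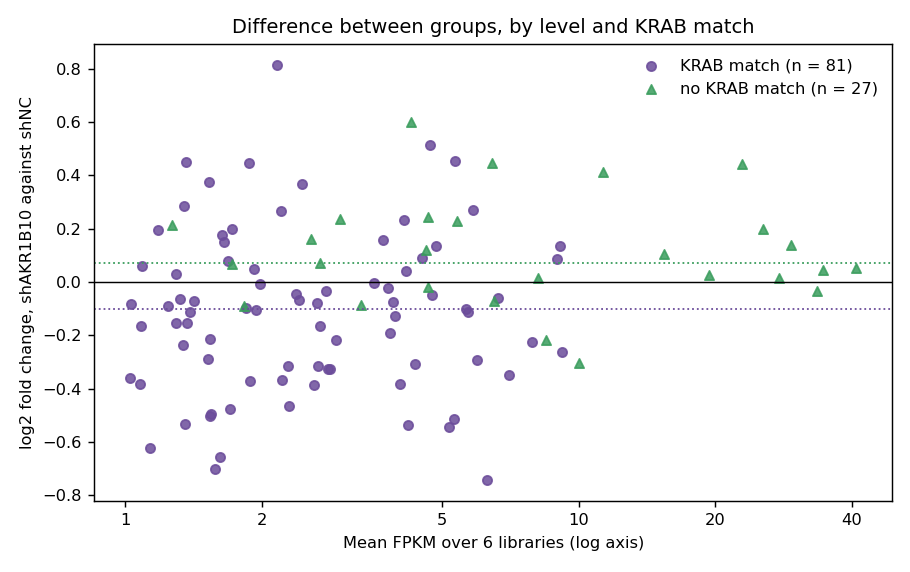
Log2 fold change of the 108 tested ZNF genes (BrM3-shAKR1B10 against BrM3-shNC, vertical axis) against the mean FPKM over 6 libraries (log axis). Circles are the 81 genes with a KRAB match and triangles the 27 without, dotted lines give their medians of -0.10 and 0.07, and every gene at 10 FPKM or above is a triangle.

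Cluster 15 had the lowest median of the clusters with more than 1 tested gene, and was singled out after its values were seen. Of its 18 tested genes 16 had a log2 fold change below 0, 11 were lower at an adjusted p below 0.05, 4 also passed the fold threshold, none was higher, and the median was -0.30. Over all genes tested, 51.6% were below 0, 23.1% were lower at the adjusted p and 7.45% passed both thresholds. The median deviation of these 18 genes from their own mean was -0.13, -0.10 and -0.16 after knockdown and 0.24, 0.10 and 0.11 in the controls. Every BrM3-shAKR1B10 library lay below every BrM3-shNC library, which restates the low median by which the cluster was chosen and is no separate support. BrM3-shNC replicate 1 was again the highest. Without it the median was -0.22, 16 genes were still below 0, 5 passed the adjusted p and 2 both thresholds. Among all genes tested in that fit 21.2% were lower at the adjusted p, and 942 of 13186 were lower past both thresholds. Leaving out any other library gave medians of -0.27 to -0.32, with 5 to 8 genes past the adjusted p, against 19.3% to 19.7% of all genes tested. With the replicate numbers as a block, 8 passed the adjusted p and 3 both thresholds, and in TPM 11 and 1. Among all genes tested 20.1% were lower at the adjusted p with the block and 19.5% in TPM. Those lower past both thresholds were 967 of 13150 and 852 of 13157. Each of the 11 genes shared less than 5% of its 75-base words with transcripts of other genes. ZNF611 at 4.91% and ZNF649 at 4.80% lay close to that limit, and ZNF525 and ZNF765 overlap on the plus strand.

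The 4 genes of cluster 15 past both thresholds were ZNF331, ZNF614, ZNF28 and ZNF649. The 7 others past the adjusted p alone were ZNF611, ZNF765, ZNF525, ZNF432, ZNF845, ZNF761 and ZNF480, with log2 fold changes of -0.48, -0.47, -0.39, -0.33, -0.31, -0.26 and -0.23 (all but ZNF611 named after their values were seen). The 2 genes above 0 were ZNF350 at 0.09 and ZNF83 at 0.21, neither past the test. ZNF83 was the only one of the 18 without a KRAB match. All 11 genes past the adjusted p have a match and are among the 26 lower genes with a match given above. The results for the KRAB genes and for cluster 15 thus rest in part on the same genes and are not separate observations. The 16 other coding genes of the interval were mostly without reads, 13 of them at 0, and the 2 of them that were tested did not pass.

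**Figure D3:**
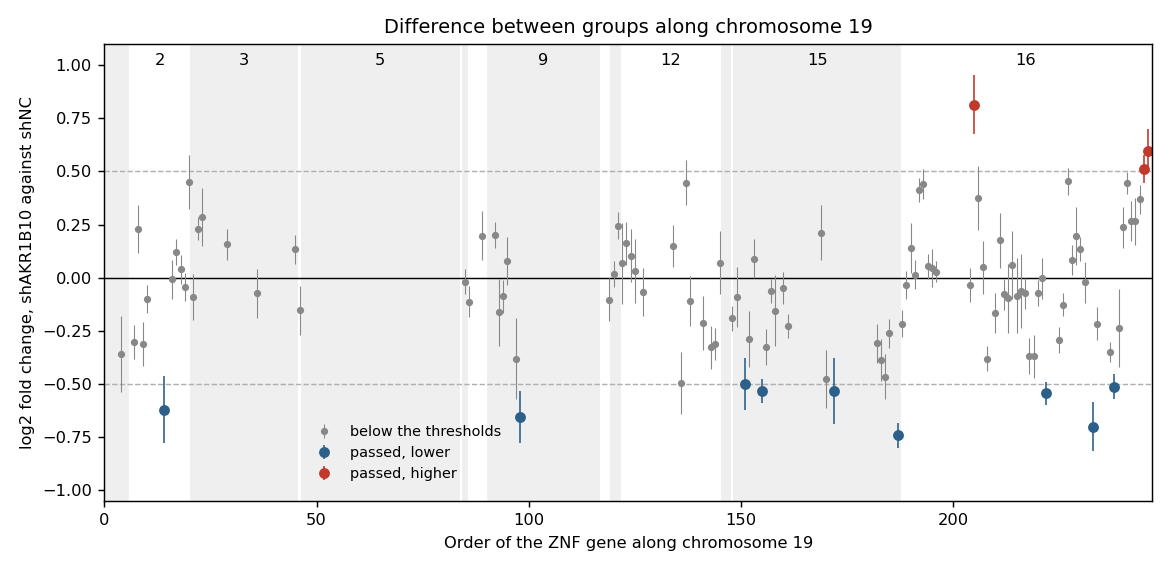
Log2 fold change with its standard error for the 108 tested ZNF genes, placed by the order of all 246 genes along chromosome 19. Shading alternates between clusters, numbers name the clusters of more than 8 genes, and dashed lines mark the fold threshold of 0.5. Cluster 5 is empty, and 16 of 18 genes of cluster 15 lie below 0.

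Cluster 16 had calls in both directions, in shares near those of all genes tested. Of its 46 tested genes 3 were lower and 3 higher, 9 were lower and 8 higher at an adjusted p below 0.05, 23 were below 0, and the median was 0.01, where all genes tested gave 7.45% and 5.83% past both thresholds and 23.1% and 19.4% past the adjusted p. Cluster 12 had 13 tested genes, none past both thresholds and a median of 0.03, and cluster 3 had 6, none past both and a median of 0.14. The remaining lower genes stood alone in their clusters, ZNF266 in cluster 2 and ZNF567 in cluster 9.

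ZNF331 (chr19:53519527-53580269, plus strand) had the lowest log2 fold change among the tested genes, although ZNF256 was lower under quantile normalization (-0.77 against -0.73) and without BrM3-shAKR1B10 replicate 1 (-0.74 against -0.72). ZNF331 is an imprinted KRAB zinc finger gene whose promoter is often methylated in gastrointestinal cancers. It measured 4.54, 4.63 and 4.83 FPKM after knockdown and 8.34, 7.96 and 7.35 FPKM in the controls. The 3 knockdown libraries lay close together and well below all 3 controls. The means were 4.67 ± 0.15 and 7.88 ± 0.50 FPKM (SD, n = 3), and the log2 fold change was -0.74 ± 0.06 (SE, adjusted p = 0.000173, limma). It rested on 716 to 1366 reads per library, overlapped no other annotated gene, and passed in all 15 alternatives that kept the filter and thresholds.

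ZNF256 (chr19:57940833-57947675, minus strand), a KRAB gene with 15 fingers found, measured 1.25, 1.20 and 1.09 FPKM against 2.08, 2.01 and 1.84 FPKM, a log2 fold change of -0.70 ± 0.11 (adjusted p = 0.00327). ZNF567 (chr19:36687612-36727701, plus strand) measured 1.26, 1.31 and 1.12 FPKM against 2.20, 1.82 and 1.98 FPKM, a log2 fold change of -0.66 ± 0.12 (adjusted p = 0.00588). The groups of both genes were apart, on 42 to 83 reads for ZNF256 and 94 to 191 for ZNF567. With a pseudocount of 1 both fell short of the fold threshold, at -0.45 and -0.43. ZNF567 overlaps ZNF850 on the opposite strand over 13319 bases, and whether the counting used strand is not given in the sources used here. ZNF850 was at 0.224 and 0.365 FPKM.

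ZNF551 (chr19:57681969-57717301, plus strand) measured 4.30, 4.04 and 4.23 FPKM after knockdown and 6.01, 6.48 and 5.97 FPKM in the controls, a log2 fold change of -0.54 ± 0.05 (adjusted p = 0.000436). ZNF614 (chr19:52012765-52030240, minus strand) measured 3.48, 3.20 and 3.55 FPKM against 4.94, 4.91 and 5.08 FPKM, a log2 fold change of -0.53 ± 0.06 (adjusted p = 0.000582). ZNF544 (chr19:58228594-58277495, plus strand) measured 4.52, 4.53 and 4.03 FPKM against 6.30, 6.22 and 6.24 FPKM, a log2 fold change of -0.51 ± 0.06 (adjusted p = 0.000718). In all 3 every knockdown library was below every control. The log2 fold change of ZNF614 was -0.49 without BrM3-shAKR1B10 replicate 2 and that of ZNF544 was -0.46 without BrM3-shAKR1B10 replicate 3, both short of the fold threshold. Both genes also fell short of it in TPM (-0.498 and -0.476) and with a pseudocount of 1 (-0.44 each), as did ZNF551 with that pseudocount (-0.46). ZNF544 shares 12.1% of its words with other transcripts.

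ZNF266, ZNF28 and ZNF649 were the least secure of the lower genes. ZNF266 (chr19:9412461-9435578, minus strand) measured 0.765, 0.984 and 0.877 FPKM against 1.38, 1.39 and 1.41 FPKM, a log2 fold change of -0.62 ± 0.16 (adjusted p = 0.0189). It entered the test only through its control level, since its BrM3-shAKR1B10 mean was 0.875 FPKM, so its call is no support for the family's counts, which without it and the 3 like it were 8 lower (7.69%) and 3 higher (2.88%) of 104, against 7.25% and 5.07% of all 12560 genes under that rule. Leaving out any 1 BrM3-shNC library raised its adjusted p to between 0.0539 and 0.0586, and with a pseudocount of 1 its log2 fold change was -0.35. ZNF28 (chr19:52797409-52857600, minus strand) measured 1.25, 1.08 and 0.944 FPKM against 1.55, 1.48 and 1.83 FPKM, a log2 fold change of -0.53 ± 0.16 (adjusted p = 0.0329). Its call was lost on leaving out each library but BrM3-shAKR1B10 replicate 1, with adjusted p values of 0.0536 to 0.106, and with the replicate block the adjusted p was 0.0788. It was also lost with no filter (adjusted p = 0.0638) and, by the fold, in TPM (-0.499) and with a pseudocount of 1 (-0.33). It overlaps ZNF468 on the same strand over 19593 bases. ZNF649 is described with the other retrotransposon-binding genes.

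3 genes were higher. ZNF805 (chr19:57240685-57255135, plus strand), a KRAB gene with 13 fingers found, measured 3.01, 3.01 and 2.35 FPKM after knockdown and 1.38, 1.48 and 1.76 FPKM in the controls. Every knockdown library was above every control, and the log2 fold change was 0.81 ± 0.14 (adjusted p = 0.00395), on 63 to 137 reads. It passed in all 15 alternatives that kept the filter and thresholds.

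ZNF324 and ZNF446 are neighbours on the plus strand that overlap by 1420 bases at chr19:58467045-58475436 and chr19:58474017-58481230. ZNF324 measured 5.58, 5.14 and 5.88 FPKM against 4.04, 3.68 and 3.83 FPKM, a log2 fold change of 0.51 ± 0.07 (adjusted p = 0.00135). ZNF446 measured 5.46, 4.55 and 5.51 FPKM against 3.17, 3.75 and 3.23 FPKM, a log2 fold change of 0.60 ± 0.10 (adjusted p = 0.0038). Both were higher in every knockdown library. They share 31.3% and 29.9% of their 75-base words with transcripts of other genes, so how the reads divide between them is uncertain and they may not be separate observations. Without BrM3-shAKR1B10 replicate 3 the log2 fold change of ZNF324 was 0.47, and without BrM3-shNC replicate 2 it was 0.48. With a pseudocount of 1 both calls were lost, at 0.43 for ZNF324 and 0.49 for ZNF446.

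**Figure D4:**
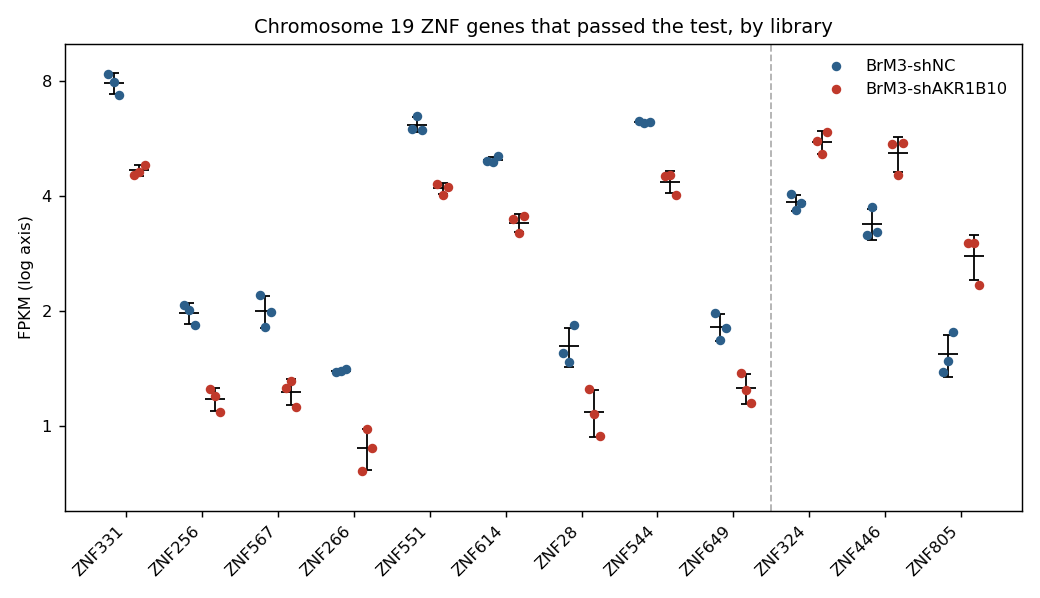
FPKM (log axis) of the 12 ZNF genes past both thresholds in each of the 3 BrM3-shNC and 3 BrM3-shAKR1B10 libraries, with bars for the mean and SD. The 9 genes left of the dashed line were lower and the 3 right of it higher in BrM3-shAKR1B10, and the groups of no gene overlap.

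Promoters are shown for ZNF805, which had the highest log2 fold change, and for ZNF256, which had the second lowest, because both lie in cluster 16 and their windows touch no annotated untranslated region. For each, the 250 bases before the RefSeq start (GRCh38.p14) are printed, in the direction of transcription, with matches to the GC box (GGGCGG or its reverse complement) and to the CCAAT box (on either strand) in capitals. ZNF805 lies on the plus strand at chr19:57240382-57240631 and ZNF256 on the minus strand at chr19:57947707-57947956.
ZNF805: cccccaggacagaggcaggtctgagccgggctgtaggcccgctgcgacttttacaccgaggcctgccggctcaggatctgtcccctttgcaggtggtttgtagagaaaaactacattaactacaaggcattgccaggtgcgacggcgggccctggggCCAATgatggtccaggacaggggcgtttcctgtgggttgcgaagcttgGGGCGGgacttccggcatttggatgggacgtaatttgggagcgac
ZNF256: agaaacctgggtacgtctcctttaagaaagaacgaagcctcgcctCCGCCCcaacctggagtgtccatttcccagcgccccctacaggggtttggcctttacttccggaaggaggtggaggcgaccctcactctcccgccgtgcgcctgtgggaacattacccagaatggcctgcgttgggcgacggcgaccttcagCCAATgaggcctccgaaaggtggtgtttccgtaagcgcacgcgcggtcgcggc
Each window holds 1 GC box and 1 CCAAT box and no TATAAA on either strand, with 60.4% G and C and 14 CpG in ZNF805 and 62.0% and 22 CpG in ZNF256.

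The same window was found for 215 of the 246 genes. Among the 99 tested genes with a window, 60.6% held a GC box, 44.4% a CCAAT box and 1.01% TATAAA, and the median share of G and C was 61.6%. Over the 8642 windows of all tested coding genes the shares were 69.6%, 35.1% and 4.81%, and over all 35116 windows 42.6%, 32.0% and 10.7%. Of the 7 lower genes with a window, ZNF256 was the only one with a GC box (14.3%) and 2 had a CCAAT box (28.6%), and ZNF331 had neither. Of the 3 higher genes, 2 had a GC box and 2 a CCAAT box (66.7% each). These numbers are small and were not tested. A match is a run of letters and no shown binding site.

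Genes known to bind or repress retrotransposons were considered as a list of 8. ZNF91 and ZNF93, repressors of SVA and LINE-1 elements, and ZNF534 had no read in any library. ZNF91 and ZNF93 belong to the run of genes with few or no reads in cluster 5. ZNF808, which binds MER11 elements, was at 0.175 ± 0.026 FPKM after knockdown and 0.283 ± 0.051 FPKM in the controls and was too low to test. Of the 4 tested, 1 was lower and 3 did not pass both thresholds, too few to set against the 7.45% lower and 5.83% higher of all genes tested.

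ZNF649 (chr19:51889224-51905040, minus strand), which binds LINE-1 sequences, measured 1.37, 1.24 and 1.15 FPKM against 1.97, 1.68 and 1.81 FPKM, a log2 fold change of -0.50 ± 0.12 (adjusted p = 0.0169). All knockdown libraries were lower, but the value sits at the fold threshold. Its call was lost without BrM3-shNC replicate 1 (-0.45, adjusted p = 0.059), without BrM3-shAKR1B10 replicate 2 (-0.497) or replicate 3 (-0.45), both short of the fold, as it was in TPM (-0.47) and with a pseudocount of 1 (-0.32). ZNF649 overlaps its antisense gene ZNF649-AS1, which was at 0.356 FPKM after knockdown and 0.945 FPKM in the controls.

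ZNF611, which binds SVA elements, measured 1.42, 1.59 and 1.22 FPKM against 2.25, 1.85 and 1.88 FPKM, a log2 fold change of -0.48 ± 0.14 (adjusted p = 0.0312) that fell short of the fold threshold. It passed both thresholds in 4 of 15 alternatives, while the adjusted p was 0.0546 with the replicate block, 0.0677 with no filter and 0.054 to 0.0941 on leaving out any library but BrM3-shAKR1B10 replicate 2. ZNF417 and ZNF587, a near-identical pair that represses HERV-K elements, had log2 fold changes of -0.02 ± 0.10 and 0.14 ± 0.06 (adjusted p = 0.877 and 0.0894). They share 31.5% and 35.2% of their words with other transcripts, so their separate levels are uncertain.

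4 genes with other known roles were followed. ZNF274, which brings SETDB1 to the 3′ ends of ZNF genes, measured 6.29, 6.33 and 5.84 FPKM after knockdown and 7.81, 8.01 and 7.74 FPKM in the controls, with a log2 fold change of -0.35 ± 0.05 (adjusted p = 0.00155), apart in all libraries but under the fold threshold. ZNF473, a processing factor of histone messenger RNA, had -0.19 ± 0.06 (adjusted p = 0.0372). That adjusted p rose to 0.0701 with the replicate block, 0.0699 in TPM, 0.0806 with no filter and 0.0719 to 0.1004 on leaving out any library but BrM3-shAKR1B10 replicate 1. ZNF350, a partner of BRCA1, had 0.09 ± 0.09 (adjusted p = 0.474). ZNF331, the remaining one, is described above.

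KRAB zinc finger proteins work through a set of partners, and many of these had log2 fold changes below 0. Of 27 genes of TRIM28 repression and heterochromatin, 26 were tested, 4 were lower and none higher past both thresholds, 16 were lower and none higher at an adjusted p below 0.05, 21 had a log2 fold change below 0, and the median was -0.22. That is 15.4% past both thresholds against 7.45% of all genes tested, and 61.5% past the adjusted p against 23.1%. The list is short and was given no test.

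TRIM28 itself, at 253 FPKM among the most abundant of the list, measured 235, 233 and 248 FPKM against 252, 272 and 279 FPKM, a log2 fold change of -0.17 ± 0.05 (adjusted p = 0.0314). The adjusted p was 0.116 in TPM, 0.282 under quantile normalization (-0.08), 0.0595 without a variance trend, 0.0912 with no filter, and 0.0864 to 0.0986 without BrM3-shAKR1B10 replicate 1 or 2 or BrM3-shNC replicate 2 or 3. SETDB1 was at 0.06 ± 0.06 (adjusted p = 0.473). The 4 past both thresholds were SUV39H1, a histone methyltransferase of constitutive heterochromatin (2.07, 1.92 and 1.74 FPKM against 4.01, 3.72 and 4.10 FPKM), CBX3, an HP1 protein (48.2, 49.1 and 49.5 FPKM against 80.8, 76.6 and 75.8 FPKM), UHRF1, which maintains DNA methylation at replication (14.4, 12.8 and 13.3 FPKM against 20.3, 21.5 and 22.3 FPKM), and ATF7IP, the partner of SETDB1 (3.37, 3.73 and 3.55 FPKM against 5.66, 5.58 and 5.68 FPKM). In each the 3 knockdown libraries lay below the 3 controls. Their log2 fold changes were -1.01 ± 0.08, -0.67 ± 0.03, -0.66 ± 0.06 and -0.65 ± 0.05, with adjusted p values of 0.000216, 3.38e-05, 0.00025 and 0.000197.

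**Figure D5:**
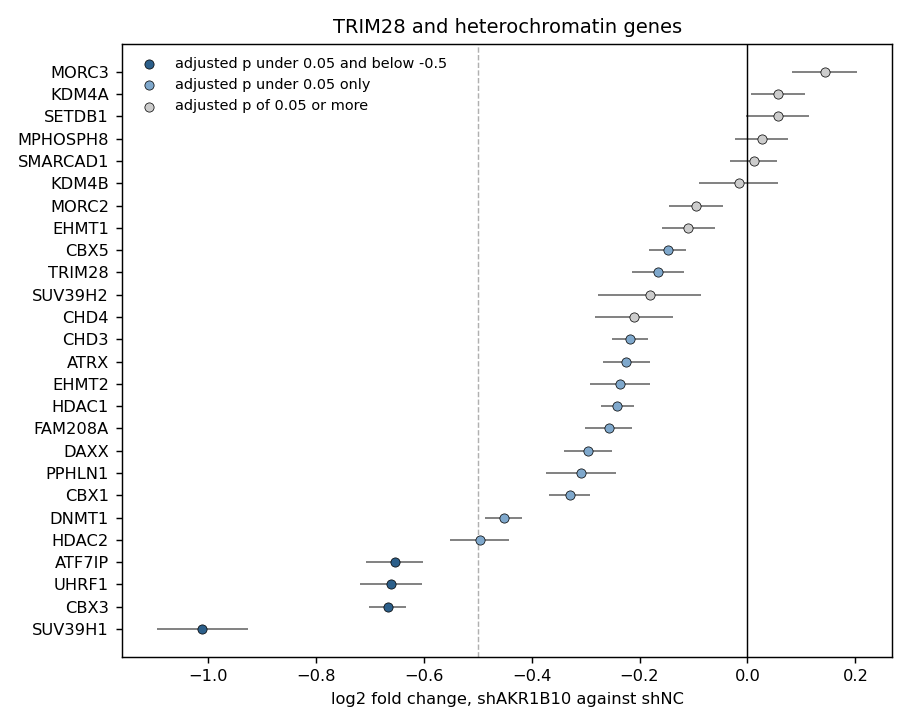
Log2 fold change (BrM3-shAKR1B10 against BrM3-shNC) with its standard error for the 26 tested genes of TRIM28 repression and heterochromatin. 21 lie below 0, and the 4 dark points past the dashed line at -0.5 are SUV39H1, CBX3, UHRF1 and ATF7IP.

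Reads can be divided wrongly between genes that share sequence or overlap. Among the 32 tested ZNF genes that share at least 5% of their words with other transcripts, 1 was lower (3.12%) and 2 higher (6.25%) with a median of 0.02, and among the 76 others 8 were lower (10.5%) and 1 higher (1.32%) with a median of -0.07. The 52 genes that overlap a gene on the opposite strand had 5 lower (9.62%) and 2 higher (3.85%) and a median of -0.06, and the 56 that do not had 4 lower (7.14%) and 1 higher (1.79%) and a median of -0.07. All genes tested gave 7.45% and 5.83%. The 4 genes that reached 1 FPKM only through the controls are in these counts. With both group means at 1 FPKM or more, 7 of 73 with under 5% shared words were lower (9.59%) and 1 higher (1.37%) with a median of -0.06, and 1 of 31 with more was lower and 2 higher with a median of 0.06. Of the 53 with no overlap on the opposite strand 3 were then lower (5.66%) and 1 higher (1.89%) with a median of -0.04, and of the 51 with one 5 were lower and 2 higher with a median of -0.05.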

How the data were processed

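RNA-seq of 6 libraries of the cell line PC9-BrM3 was analysed, 3 BrM3-shAKR1B10 and 3 BrM3-shNC, grouped by sample title. The authors deposited FPKM per gene; the labels name HISAT2 2.0.5 and featureCounts 1.5.0-p3, and the genome build and the strand setting are not given in the sources used here. All 58735 genes matched GENCODE 29 (GRCh38) in identifier, position and strand. Deposited FPKM values were whole reads in 100% of entries once scaled by gene length and library (within 0.01 read), and gave the read numbers quoted.

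Values were tested as log2(FPKM + 0.1), which understates changes of low genes, with limma 3.58.1 in R 4.3.3 (lmFit, eBayes with a trend, two-sided) over the 13150 genes with a mean of at least 1 FPKM, with Benjamini-Hochberg adjustment over all of them. A gene passed at an adjusted p below 0.05 and an absolute log2 fold change above 0.5. Errors of log2 fold changes are standard errors. The fit was tested on simulated data. KRAB and finger patterns were searched in translations of the longest GENCODE coding sequence, since no protein table was used here; word sharing is the percent of 75-base words also in transcripts of other genes, on either strand.

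The ZNF genes, lists and clusters were chosen with earlier results of these data known. Named genes are up to 10 lowest and 10 highest of those past both thresholds with groups apart, the 5 most abundant, the retrotransposon list of 8, ZNF274, ZNF331, ZNF350, ZNF473, TRIM28, SETDB1 and the called genes of their list, and AKR1B10. Alternatives changed the pseudocount, filter, scaling, fold threshold, variance trend, gene set, test and replicate block, and left out each library.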

Additional observations from a re-analysis of the deposited data

How the results depend on the processing

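The counts reported were 9 ZNF genes lower and 3 higher, with a median log2 fold change of -0.06. A pseudocount of 1 gave 1 lower and 1 higher of 108 (5.38% and 3.78% of all genes tested), a filter at 5 FPKM 3 and 0 of 30 (7.23% and 3.94%), TPM 5 lower (6.48%), and a fold threshold of 1 gave 0 and 0 (1.56% and 1.28%). The median was -0.0860 with a filter at 0.3 FPKM, 0.0152 at 5 FPKM and -0.0265 in TPM. A higher pseudocount shrinks low genes, the stricter filter tests fewer, and TPM raised the median of all genes. Leaving out each library gave 6 to 9 lower (6 without BrM3-shNC replicate 1), 2 to 4 higher (7.13% to 7.44% and 4.95% to 5.81% of all genes tested) and medians from -0.0657 to -0.0317 (the last without BrM3-shAKR1B10 replicate 1). Grouping at 0.5 Mb gave 20 clusters. Requiring both group means at 1 FPKM, an alternative chosen after seeing the data, gave 8 lower and 3 higher of 104 (7.25% and 5.07% of all genes) and a median of -0.0460.

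The replicate numbers did not pair the libraries: correlations of same-numbered deviations were -0.0155, 0.00388 and 0.00383, and 0 libraries correlated best with their own number. With the replicate block 8 were lower and 3 higher (7.35% and 5.47% of all genes tested), and the median stayed at -0.06.

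Some values near 0 changed sign without passing. ZNF579 was 0.00163 in TPM and 0.0430 under quantile normalization, and ZNF417 was 0.0147 in TPM. TPM moved the median of all genes from -0.0113 to 0.0250, a shift of the same size, so these changes of sign in TPM are not particular to either gene. Leaving out each library gave log2 fold changes from -0.0803 to 0.0202 for ZNF579, -0.113 to 0.0737 for ZNF417, -0.0476 to 0.114 for ZNF787, -0.0408 to 0.0711 for ZNF865, -0.00842 to 0.0930 for ZNF581 and -0.000362 to 0.230 for ZNF524. The 138 ZNF genes below 1 FPKM were left out by the filter, which scales with gene length, and ZNF468, named after its values were seen, had 158 to 245 reads per library where a tested ZNF gene had as few as 34.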

Other observations

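Chromosome 19 also held 29 coding genes of the C2H2 zinc finger family whose symbols do not follow the ZNF pattern. 6 of them were tested, none passed both thresholds, and their median log2 fold change was 0.09.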
